A study of Homo sapiens with 50 samples.

Results

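The glucose analogue 2-deoxyglucose (2-DG) was set against its matched control on day 5 of cardiac differentiation: human embryonic stem cells of the established line H1 that received IWP2, NaHCO3 and 2-DG, against H1 cells that received IWP2 and NaHCO3 alone. Each group had 2 RNA-seq libraries, and both shared IWP2 (an inhibitor of WNT secretion) and NaHCO3 (sodium bicarbonate, a base). The members described here are the genes with at least 1 FPKM (fragments per kilobase of exon, scaled to the depth of the library) in at least 2 of these 4 libraries. They numbered 13969 of the 57905 genes in the table. At the edge of that rule, 35 members had a second-highest value of exactly 1 FPKM among the 4 libraries, and 35 genes just outside had 0.99 FPKM. Of the members, 355 passed through the libraries with 2-DG alone and 944 through those without it alone, so such genes had to differ to some degree; they supply 269 of the rises and 567 of the falls given below. Their number is given below for each list that has 2 or more of them in 1 direction. The other lists had at most 1 in each direction.

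The study also has, on day 5, a differentiation control, HCl (an acid), NaHCO3 alone and IWP2 alone, and the same treatments on days 3, 7 and 11, with 2 libraries each. The labels give no dose, no time of addition and no measured pH, and do not say that the 2 libraries of a group came from separate cultures. The p-values below therefore measure the spread between libraries of a group, which may be technical. For days 3 and 5 that spread was estimated over all 12 groups of those days. The 4 libraries held 21686555 and 19521886 counts without 2-DG, and 20202543 and 15131268 with it. A count was seen for 25515 and 25818 genes without 2-DG and for 23466 and 23180 with it. The 2 libraries of a group differed by a standard deviation of 0.26 (log2) over the members without 2-DG and 0.33 with it. The 2 libraries of day 3 with 2-DG stood apart at 0.76, against 0.26 to 0.38 in the other 11 groups of days 3 and 5, and results that turn on them are given with and without each of them. They also entered the estimate of spread behind the day 5 tests.

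2-DG enters cells through glucose transporters and is phosphorylated by hexokinase, after which glycolysis cannot process it further. It also resembles mannose and can enter the precursors of N-linked glycans, which are attached to proteins in the endoplasmic reticulum (ER). Cells that sense misfolded protein in the ER start the unfolded protein response through the sensors IRE1, ATF6 and PERK. PERK, like the kinases that sense amino acid shortage, phosphorylates the translation factor eIF2-alpha. That step starts the integrated stress response, in which the transcription factor ATF4 raises genes of amino acid uptake and synthesis. Cells in a cardiac differentiation pass from mesoderm to heart progenitors and begin to express sarcomere genes.

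With 2-DG, 1069 members rose and 1258 fell, which is 7.65% and 9.01% of the 13969 members (edgeR's quasi-likelihood test, Benjamini-Hochberg adjusted p under 0.05 and a fold change of at least 2). With limma on log2(FPKM + 1), which changes the test, the scale and the scaling of libraries together, 642 rose and 948 fell. Over all 17286 genes tested, 7.04% rose and 9.42% fell. At an adjusted p under 0.05 and any fold, 44.6% of the members differed. In FPKM, both libraries with 2-DG lay above both others in 30.6% of the members and below both in 50.6%. FPKM does not carry the TMM scaling of the test, whose factors were 0.911 and 0.918 with 2-DG and 1.03 and 1.04 without it. Most members were thus separated in FPKM in 1 direction or the other, so remarks below on libraries that did not overlap single out no gene. For genes named only among the 12 largest rises or falls, such separation was a condition of choice. Changes of at least 8-fold were made up of 164 rises and 178 falls. The median log2 fold change was 0.025 over the members and -0.009 over all genes tested. By kind of gene, 8.24% of the 11749 protein-coding members rose and 8.65% fell, while 5.41% of the 961 long non-coding members rose and 16.9% fell (GENCODE biotypes; 402 members had no matching ID). The words rose and fell are used below only of genes past this test. Values are FPKM in replicate 1 and replicate 2, and fold changes are log2 values from the counts with their standard error.

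**Figure D1:**
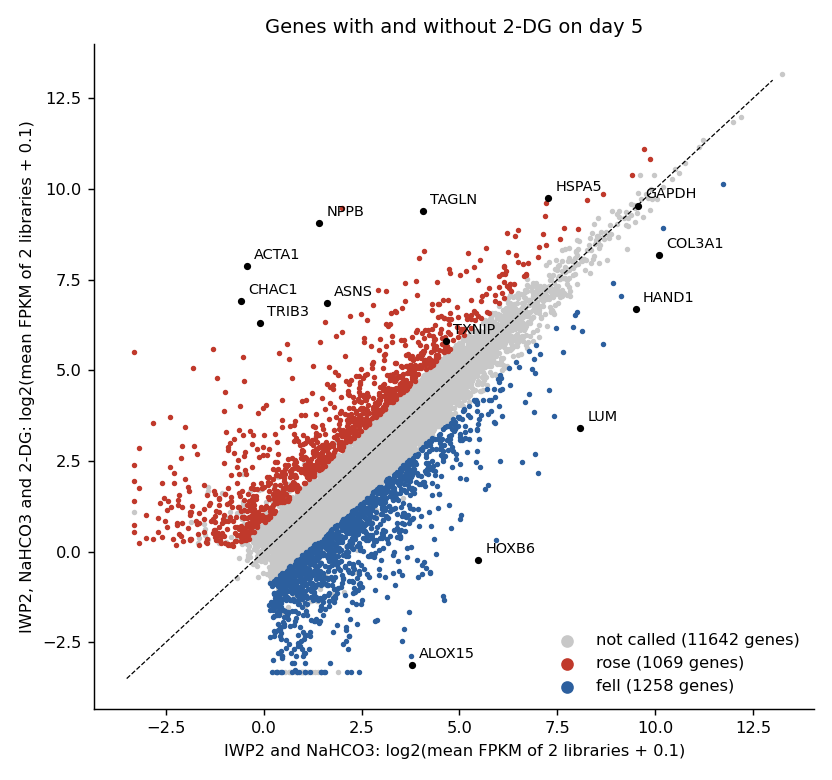
Mean FPKM of each of the 13969 members in the 2 libraries without 2-DG (horizontal axis) and the 2 libraries with it (vertical axis), both as log2(mean FPKM + 0.1), with the 1069 members that rose in red and the 1258 that fell in blue. The dashed line marks equal values; CHAC1, TRIB3 and ACTA1 lie far above it and ALOX15, HOXB6 and LUM far below it, while GAPDH lies on it.

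The integrated stress response rose almost as a whole. Of its 25 members (the listed hormone gene FGF21 was too low to be one), 23 rose and 0 fell, with a median log2 fold change of 2.53 against 0.025 over all members. Of the 25, 3 passed through the libraries with 2-DG alone (CHAC1, TRIB3 and NUPR1), and so had to differ to some degree. CHAC1, an enzyme that breaks down glutathione (chr15:41245160-41248710 in GRCh37), was at 0.54 and 0.6 FPKM without 2-DG and 122 and 119 FPKM with it (log2 fold change 7.89 ± 0.31 SE, adjusted p = 1.99e-13). TRIB3, a pseudokinase that damps the response (chr20:361261-378203), was at 0.81 and 0.85 FPKM without 2-DG and 76.3 and 81.2 FPKM with it (log2 fold change 6.73 ± 0.23 SE, adjusted p = 3.76e-14). DDIT3, which encodes the transcription factor CHOP, was at 5.36 and 5.57 FPKM without 2-DG and 90.6 and 95.7 FPKM with it (log2 fold change 4.26 ± 0.31 SE, adjusted p = 1.33e-09). ATF4 itself stood at 139 and 139 FPKM without 2-DG and 443 and 417 FPKM with it (log2 fold change 1.80 ± 0.15 SE, adjusted p = 6.46e-09). In DDIT3 and ATF4 both libraries with 2-DG lay above both without it, as in 30.6% of all members. In CHAC1 and TRIB3 that separation was fixed by the rule for members. The 2 libraries of a group differed far less than the groups did.

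NUPR1, a stress-induced chromatin protein, had 0 counts in both libraries without 2-DG and 3.38 and 4.16 FPKM with it. It was at least 28.3-fold higher, with 3 counts per library as the floor. STC2, a secreted glycoprotein, was at 1.2 and 1.21 FPKM without 2-DG and 43.9 and 44.5 FPKM with it (log2 fold change 5.36 ± 0.17). GDF15, a secreted stress cytokine, was at 1.02 and 0.42 FPKM without 2-DG and 8.70 and 9.72 FPKM with it (log2 fold change 3.82 ± 0.29, adjusted p = 2.23e-09). The members of the list that did not pass the 2-fold limit were the phosphatase subunit PPP1R15A, at 0.93, and the alanyl-tRNA synthetase AARS, at 0.85. The other 8 aminoacyl-tRNA synthetases of the list rose.

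Genes of amino acid supply moved with them. Of 15 members among the enzymes of serine, asparagine and one-carbon synthesis, 10 rose and 0 fell (median 1.31). ASNS, which makes asparagine (chr7:97481430-97501854 in GRCh37), was at 3.07 and 2.81 FPKM without 2-DG and 115 and 115 FPKM with it (log2 fold change 5.46 ± 0.15 SE, adjusted p = 2.48e-15). PSAT1, which carries out the second step of serine synthesis, was at 17.7 and 16.1 FPKM without 2-DG and 316 and 311 FPKM with it (log2 fold change 4.38 ± 0.10 SE, adjusted p = 6.47e-16). The mitochondrial folate enzyme MTHFD2 was at 6.81 and 6.88 FPKM without 2-DG and 107 and 116 FPKM with it (log2 fold change 4.20 ± 0.11), and ALDH1L2, of the same compartment, was at 0.09 and 0.09 FPKM without 2-DG and 4.42 and 5.51 FPKM with it (log2 fold change 5.92 ± 0.43). No library with 2-DG overlapped a library without it in these genes, which for ALDH1L2 was fixed by the rule for members. The cytosolic folate enzyme SHMT1, by contrast, was at 6.39 and 6.61 FPKM without 2-DG and 3.81 and 4.34 FPKM with it and was not called (-0.51), whereas mitochondrial SHMT2 rose (3.19 ± 0.10).

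Of the 12 amino acid transporters, 10 rose and none fell (median 2.74), and 2 of the 12 passed through the libraries with 2-DG alone. SLC7A11, the cystine carrier, was at 0.16 and 0.14 FPKM without 2-DG and 8.94 and 12.5 FPKM with it (log2 fold change 6.32 ± 0.30 SE, adjusted p = 3.05e-12). The neutral amino acid carrier SLC1A4 was at 0.6 and 0.6 FPKM without 2-DG and 24.7 and 27.7 FPKM with it (log2 fold change 5.61 ± 0.24), the cationic carrier SLC7A1 at 2.65 and 2.58 FPKM without 2-DG and 51.1 and 58.3 FPKM with it (4.56 ± 0.23) and the glycine carrier SLC6A9 at 2.35 and 2.17 FPKM without 2-DG and 19.9 and 21.4 FPKM with it (3.36 ± 0.15). Groups did not overlap in any of these 4, which for SLC7A11 and SLC1A4 was fixed by the rule for members. The glutamine carrier SLC38A2 was not called, with a log2 fold change of 0.20.

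The promoters of CHAC1 and ASNS are shown because both genes were among the largest rises of these lists and both hold the C/EBP-ATF element, the sequence that ATF4 binds with its C/EBP partners. The sequences are the 250 bases before the gene start in RefSeq (GRCh38.p14), 5′ to 3′ on the gene's strand, at chr15:40953221-40953470 (plus strand) and chr7:97872409-97872658 (minus strand). ASNS has 2 starts in the table, and the one shown holds the match. Capitals mark the match to TGATGNAA, searched on both strands. It begins 209 bases before the start in CHAC1, on the opposite strand, and 68 bases before the start in ASNS.
CHAC1: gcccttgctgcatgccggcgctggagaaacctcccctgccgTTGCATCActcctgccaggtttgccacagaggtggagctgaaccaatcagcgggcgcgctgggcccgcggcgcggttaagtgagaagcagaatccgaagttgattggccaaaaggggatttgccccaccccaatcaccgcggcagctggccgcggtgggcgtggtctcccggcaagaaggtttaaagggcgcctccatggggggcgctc
ASNS: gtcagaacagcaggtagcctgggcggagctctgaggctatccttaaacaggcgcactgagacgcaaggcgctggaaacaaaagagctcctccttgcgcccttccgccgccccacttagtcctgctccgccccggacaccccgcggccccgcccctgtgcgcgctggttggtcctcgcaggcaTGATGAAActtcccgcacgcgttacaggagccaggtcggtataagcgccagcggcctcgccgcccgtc
The element was found in 9 of the 24 integrated stress response members that have a promoter in the table, among them AARS, which was not called. The element was also found in 5 of 10 amino acid transporters and in 3 of 10 enzymes of the serine and asparagine list, against 3.62% of all 35116 promoters of that length. The windows searched run from 250 bases before to 50 bases after the start. For this and the other motifs below, a gene with several starts counted if any of them held a match. The share over all promoters counts each promoter once, so the measures are not alike. A match is a match of letters only.

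The unfolded protein response rose with similar breadth. Of 33 members among ER chaperones, the proteins of ER-associated degradation and the sensors, 29 rose and none fell (median 1.68). HSPA5, the ER chaperone BiP (chr9:127997132-128003609 in GRCh37), was at 152 and 155 FPKM without 2-DG and 832 and 891 FPKM with it (log2 fold change 2.66 ± 0.10 SE, adjusted p = 1.31e-13). HERPUD1, a degradation factor in the ER membrane, was at 6.19 and 6.07 FPKM without 2-DG and 77.8 and 88.4 FPKM with it (log2 fold change 3.93 ± 0.14 SE, adjusted p = 5.46e-14). SDF2L1, a partner of BiP, was at 15.2 and 14.6 FPKM without 2-DG and 130.4 and 137 FPKM with it (log2 fold change 3.34 ± 0.27 SE, adjusted p = 7.7e-09). The libraries with 2-DG lay above those without it in each, and HSPA5 was among the most abundant of these transcripts in both groups.

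HYOU1, an ER chaperone of the HSP110 family, was at 35.5 and 36.3 FPKM without 2-DG and 199.96 and 223 FPKM with it (log2 fold change 2.73 ± 0.14). MANF, a secreted ER stress protein, was at 19.2 and 20.3 FPKM without 2-DG and 112 and 116 FPKM with it (2.71 ± 0.19), and DNAJB9, a co-chaperone of BiP, at 8.45 and 8.31 FPKM without 2-DG and 38.4 and 46.8 FPKM with it (2.52 ± 0.15). Of the sensors, EIF2AK3 (PERK) rose by 1.68 ± 0.13, while ATF6 at 1.05 ± 0.09 and ERN1 (IRE1) at 1.00 ± 0.23 passed with values near the 2-fold limit, and neither was recomputed under the alternatives. XBP1, the transcription factor downstream of IRE1, rose by 2.52 ± 0.14. EDEM1, EDEM2, DERL1 and TXNDC11 were the 4 members not called, at 0.73, -0.43, 0.72 and 0.93.

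The ER stress response element (CCAAT and CCACG with 9 bases between them, both strands) was found in the promoters of 7 of the 29 ER members in the table, namely HSPA5, HSP90B1, CALR, CANX, PDIA6, CRELD2 and XBP1. All 7 rose. Of all 35116 promoters, 0.0769% held it. HSPA5 and HSP90B1 (the chaperone GRP94) are shown as the copies with 1 and with 2 matches. HSP90B1 was chosen after its values were seen; it was at 149 and 141 FPKM without 2-DG and 592 and 631 FPKM with it (log2 fold change 2.25 ± 0.12). The windows are chr9:125241344-125241593 (minus strand) and chr12:103930160-103930409 (plus strand) in GRCh38.p14, again the 250 bases before the RefSeq start, with the element in capitals.
HSPA5: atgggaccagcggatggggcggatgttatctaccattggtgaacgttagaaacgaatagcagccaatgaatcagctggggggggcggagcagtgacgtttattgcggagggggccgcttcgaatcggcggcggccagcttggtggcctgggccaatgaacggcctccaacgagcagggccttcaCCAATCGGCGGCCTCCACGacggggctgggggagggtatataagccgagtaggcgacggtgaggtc
HSP90B1: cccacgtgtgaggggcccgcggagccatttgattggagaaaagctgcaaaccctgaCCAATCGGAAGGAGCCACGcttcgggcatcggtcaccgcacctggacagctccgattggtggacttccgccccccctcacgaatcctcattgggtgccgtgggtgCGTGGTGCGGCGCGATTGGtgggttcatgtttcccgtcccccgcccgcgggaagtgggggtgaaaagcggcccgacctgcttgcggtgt
In HSP90B1 the first match lies on the gene's strand and the second on the opposite strand, beginning 194 and 89 bases before the start. The match in HSPA5 begins 66 bases before the start.

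N-glycosylation enzymes, which build and transfer the glycan that 2-DG can enter, had a smaller shift. Of 29 members, 4 rose and none fell, with a median of 0.59. The 4 were subunits of the oligosaccharyl transferase, STT3A at 22.9 and 23.6 FPKM without 2-DG and 57.3 and 60.7 FPKM with it (log2 fold change 1.52 ± 0.09 SE, adjusted p = 1.24e-10), RPN1 at 64.1 and 64.0 FPKM without 2-DG and 156 and 158 FPKM with it (log2 fold change 1.47 ± 0.10) and RPN2 at 104 and 106 FPKM without 2-DG and 203 and 199 FPKM with it (1.11 ± 0.09), and the mannosyl transferase ALG2 at 12.6 and 11.8 FPKM without 2-DG and 20.03 and 23.6 FPKM with it (1.01 ± 0.13). ALG2 sat at the 2-fold limit and lost its call under several alternatives (lowest log2 value 0.785, by limma on FPKM), and of the alternatives run RPN2 lost its call under limma on FPKM alone. No library overlapped between the groups in these genes.

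**Figure D2:**
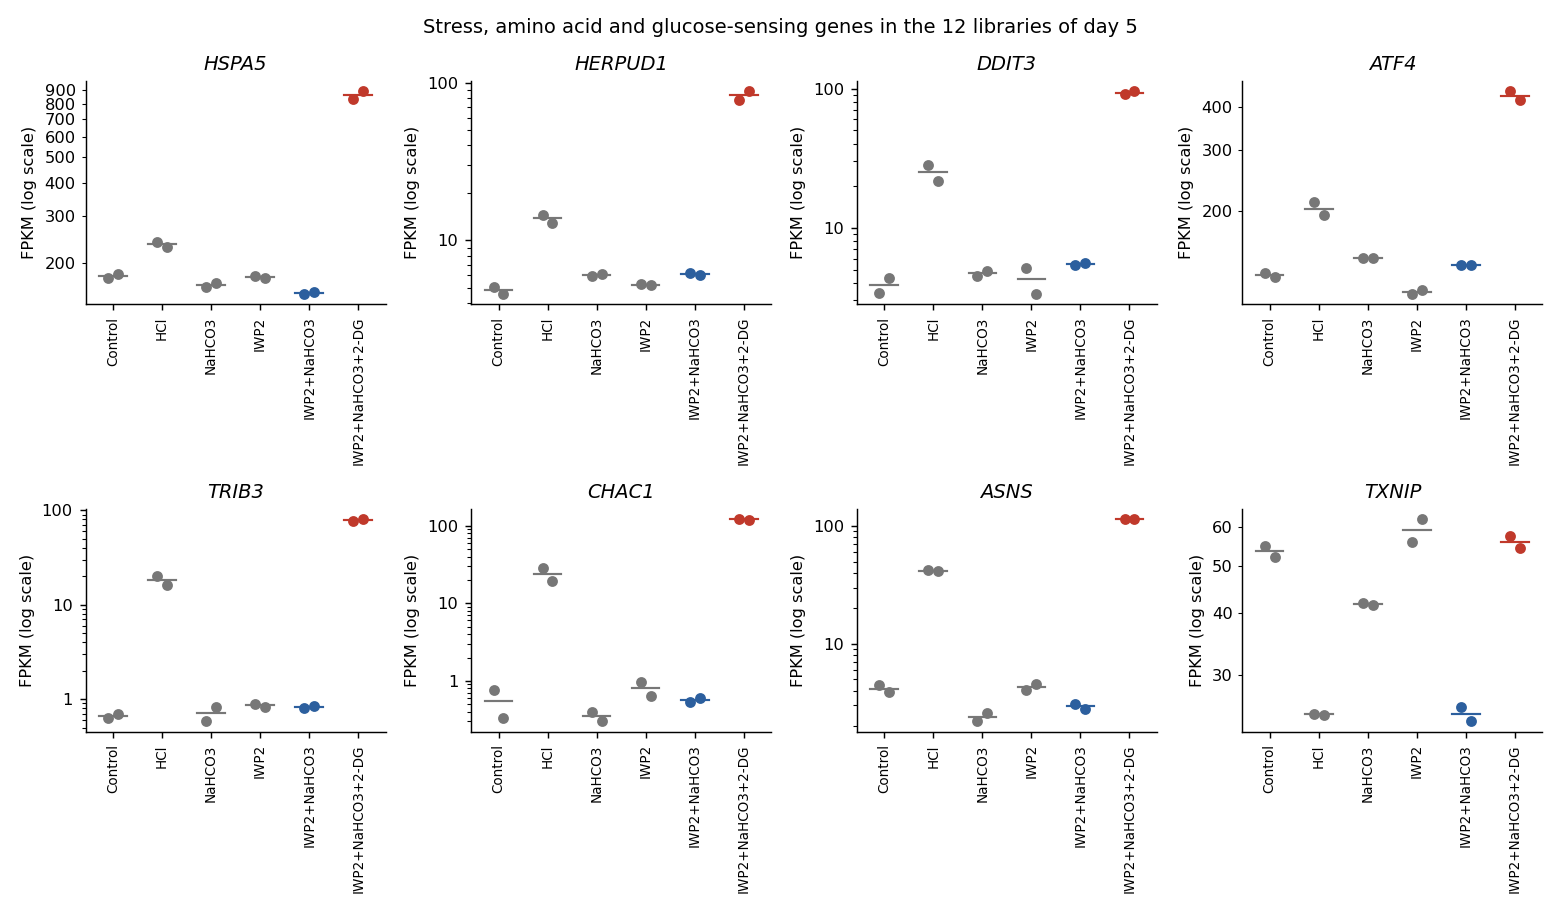
FPKM (log scale, a range of its own in each panel) of 8 genes in the 12 libraries of day 5, 2 per group, with points for libraries and a line for their mean; red is the group with 2-DG and blue its control. In HSPA5, HERPUD1, DDIT3, ATF4, TRIB3, CHAC1 and ASNS the 2 libraries with 2-DG lie above the other 10, with the HCl libraries next, while TXNIP is low in the HCl libraries and in the control with IWP2 and NaHCO3.

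In glucose uptake and glycolysis, the pathway on which 2-DG acts, few genes were called. Over all members 7.65% rose and 9.01% fell, and the counts in these short lists were not far from those shares. Among 10 members of the glucose transporters and hexokinases, 1 rose and 1 fell. Among 18 glycolytic enzymes downstream of hexokinase 1 rose and 1 fell, and among 14 genes of lactate and pyruvate handling none did either. The medians were 0.25, 0.14 and 0.14. GAPDH, a central glycolytic enzyme, was at 764 and 758 FPKM without 2-DG and 760.5 and 726 FPKM with it (log2 fold change 0.14 ± 0.13 SE, adjusted p = 0.447), and its libraries overlapped. LDHA, which makes lactate, was at 28.6 and 26.3 FPKM without 2-DG and 28.1 and 28.0 FPKM with it (log2 fold change 0.20 ± 0.12 SE, adjusted p = 0.2).

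Of the main hexokinases, HK1 was at 21.1 and 20.6 FPKM without 2-DG and 29.7 and 27.8 FPKM with it (log2 fold change 0.63 ± 0.10) and HK2 at 9.52 and 9.06 FPKM without 2-DG and 15.6 and 16.5 FPKM with it (0.96 ± 0.13); neither reached the 2-fold limit. The glucose transporters SLC2A1 and SLC2A3 were at 57.8 and 66.0 FPKM and 146 and 135 FPKM without 2-DG, and at 35.5 and 37.9 FPKM and 110.3 and 110.0 FPKM with it. Their log2 changes of -0.58 and -0.18 were not called. SLC2A6, a transporter of the same family, rose (1.35 and 1.59 to 2.68 and 3.68 FPKM, 1.28 ± 0.20). PFKP, the platelet form of phosphofructokinase, was at 62.4 and 66.8 FPKM without 2-DG and 191 and 199 FPKM with it (log2 fold change 1.77 ± 0.12 SE, adjusted p = 7.37e-10). ALDOC, an aldolase, fell from 4.82 and 5.60 to 2.20 and 1.65 FPKM (-1.25 ± 0.21). PDK1, a kinase of pyruvate dehydrogenase, was at 22.3 and 21.9 FPKM without 2-DG and 14.9 and 14.3 FPKM with it and was not called (-0.43 ± 0.14).

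In the branches that leave glycolysis, 3 of 24 members rose and 1 fell (median 0.38). GFPT1, the first enzyme of hexosamine synthesis, was at 11.2 and 11.7 FPKM without 2-DG and 29.9 and 38.03 FPKM with it (log2 fold change 1.74 ± 0.14 SE, adjusted p = 3.84e-09). The glycogen-building proteins GYG1 and GBE1 rose by 1.38 ± 0.16 and 1.12 ± 0.14, and the muscle glycogen phosphorylase PYGM fell from 6.37 and 5.76 to 1.87 and 1.65 FPKM (-1.61 ± 0.20). Of 6 members that answer to the glucose-sensing factors MondoA and ChREBP or encode them, 3 rose and none fell. TXNIP, an inhibitor of glucose uptake (chr1:145438469-145442635 in GRCh37), was at 25.8 and 24.1 FPKM without 2-DG and 57.5 and 54.4 FPKM with it (log2 fold change 1.34 ± 0.11 SE, adjusted p = 6.87e-09). Its relative ARRDC4 was at 1.43 and 1.55 FPKM without 2-DG and 11.1 and 10.8 FPKM with it (log2 fold change 3.04 ± 0.20 SE, adjusted p = 4.81e-10), and the repressor KLF11 at 3.88 and 3.77 FPKM without 2-DG and 9.16 and 10.4 FPKM with it (1.53 ± 0.13). In all 3 the groups did not overlap.

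The TXNIP promoter is shown because it holds the carbohydrate response element (CACGNG and CNCGNG with 5 bases between them, both strands), which MondoA and ChREBP bind with MLX. It covers chr1:145996580-145996829 in GRCh38.p14 (minus strand in that build), the 250 bases before the one of its 2 RefSeq starts that holds the match. The match, in capitals, begins 88 bases before the start.
TXNIP: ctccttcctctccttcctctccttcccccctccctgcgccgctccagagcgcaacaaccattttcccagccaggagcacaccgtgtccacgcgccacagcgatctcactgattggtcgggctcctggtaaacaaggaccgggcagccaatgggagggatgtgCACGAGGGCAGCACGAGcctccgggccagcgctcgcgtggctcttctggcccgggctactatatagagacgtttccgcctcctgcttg
Of the 5 MondoA and ChREBP members with a promoter in the table, TXNIP alone held this element, and ARRDC4 and KLF11 did not. Among the 61 named genes that rose and have a promoter in the table, TXNIP and GFPT1 held it, as did ATOH1 among the 32 that fell, against 0.501% of all promoters. The CHAC1, ASNS, HSPA5 and TXNIP promoters each held a match to only the 1 motif shown, of the 3 searched.

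Other stress lists moved in part. Of 17 members of the hypoxia response, 4 rose: the prolyl hydroxylases EGLN3 (0.62 and 0.37 to 5.90 and 7.09 FPKM) and EGLN1 (log2 fold change 1.22), the collagen hydroxylase P4HA2 (2.09) and the clock-related repressor BHLHE40 (2.16). Of the 17, 2 passed through the libraries with 2-DG alone. VEGFA, the endothelial growth factor, stood at 30.1 and 29.2 FPKM without 2-DG and 31.9 and 33.8 FPKM with it and was not called. Of 17 members of the p53 target list, 4 rose and 1 fell. CDKN1A, the cell-cycle inhibitor p21, was at 0.43 and 0.43 FPKM without 2-DG and 3.22 and 3.28 FPKM with it (log2 fold change 3.08 ± 0.31 SE, adjusted p = 1.47e-07), and GADD45A, BBC3 and TNFRSF10B rose by 2.01 ± 0.16, 1.37 ± 0.21 and 1.53 ± 0.13. MDM2, the ligase that degrades p53, was at 5.99 and 6.07 FPKM without 2-DG and 3.89 and 4.87 FPKM with it and was not called. Of 9 immediate early members, which answer within minutes to many stimuli, 4 rose, with JUN at 8.51 and 10.6 FPKM without 2-DG and 61.2 and 62.6 FPKM with it (log2 fold change 2.87 ± 0.14 SE, adjusted p = 4.75e-12), NR4A1 at 2.40, FOSL1 at 4.38 and FOS at 1.31.

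Cholesterol genes rose in 6 of 25 members. STARD4, which carries cholesterol between membranes, was at 2.48 and 2.92 FPKM without 2-DG and 5.51 and 7.08 FPKM with it (log2 fold change 1.39 ± 0.18 SE, adjusted p = 4.08e-06), and CYP51A1, an enzyme of its synthesis, rose by 1.38 ± 0.16. In the cytosolic heat shock list 2 of 14 members rose, among lysosome genes 2 of 24, and among metallothioneins 3 of 5. Energy genes of the mitochondrion barely entered the calls, with 1 of 25 in the TCA cycle and fatty acid oxidation list and 1 of 27 nuclear respiratory chain genes rising. None of the 13 mitochondrially encoded genes rose or fell (log2 values from -0.16 to 0.29). None of the 22 ribosomal protein genes did either (-0.2 to 0.55). Of 13 proton exchangers and bicarbonate transporters, none rose and 3 fell.

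**Figure D3:**
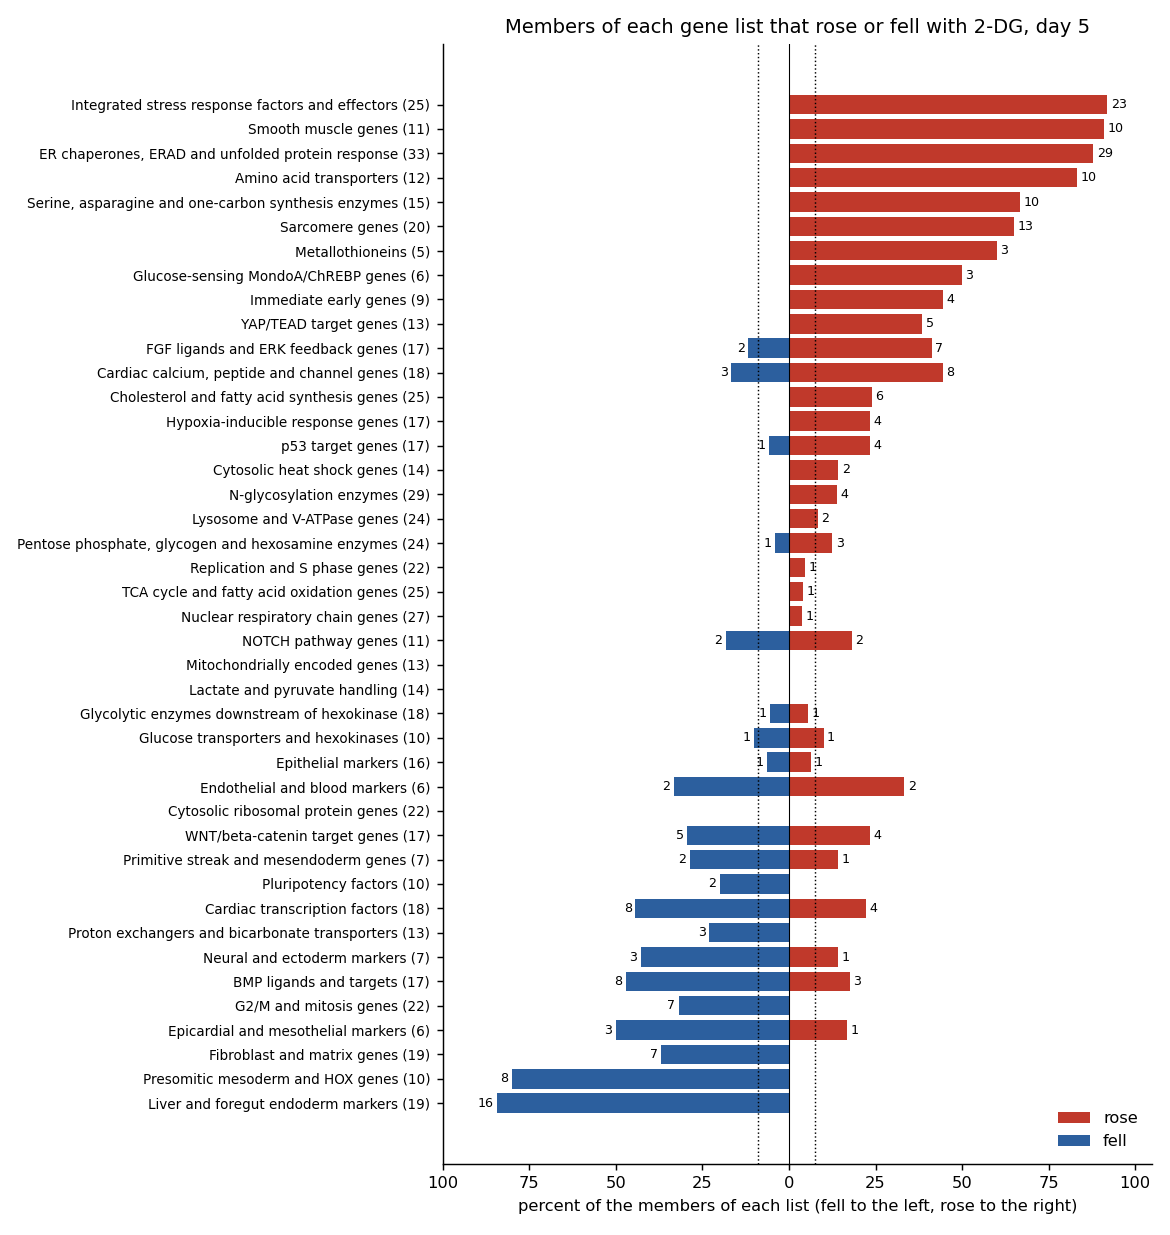
Share of the members of each gene list that rose (red, to the right) or fell (blue, to the left) with 2-DG on day 5, in percent; the number after a list's name is its members and the number at a bar is the genes called. The dotted lines mark 7.65% and 9.01%, the shares over all 13969 members; the integrated stress response has 23 of 25 rising and the liver list 16 of 19 falling.

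Genes of muscle were the other large group of rises. In bulk RNA a change in the number of cells of a type and a change in RNA per cell cannot be told apart. Of 20 sarcomere members, 13 rose and none fell (median 1.80), and 4 of the 20 passed through the libraries with 2-DG alone. ACTA1, skeletal alpha-actin (chr1:229566992-229569845 in GRCh37), was at 0.56 and 0.72 FPKM without 2-DG and 237 and 233 FPKM with it (log2 fold change 8.70 ± 0.36 SE, adjusted p = 5.29e-13). CSRP3, a protein of the Z-disc, was at 0.09 and 0.28 FPKM without 2-DG and 34.6 and 32.7 FPKM with it (log2 fold change 7.66 ± 0.39 SE, adjusted p = 2.62e-09). MYH6, the alpha heavy chain of cardiac myosin, was at 26.5 and 27.1 FPKM without 2-DG and 223 and 184 FPKM with it (log2 fold change 3.10 ± 0.24 SE, adjusted p = 3.83e-09). Cardiac troponin T, TNNT2, was at 32.4 and 32.3 FPKM without 2-DG and 66.6 and 65.6 FPKM with it (log2 fold change 1.2 ± 0.12 SE, adjusted p = 1.67e-07). Each had both libraries with 2-DG above both without it, which for ACTA1 and CSRP3 was fixed by the rule for members. ACTA1 went from under 1 FPKM to the level of the abundant sarcomere genes.

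The Z-disc proteins LDB3 and MYOZ2 were at 0.7 and 0.48 FPKM without 2-DG and 9.15 and 9.35 FPKM with it (log2 fold change 4.12 ± 0.25) and at 0.92 and 1.32 FPKM without 2-DG and 8.75 and 9.87 FPKM with it (3.23 ± 0.34). Not every sarcomere gene followed. MYL7, the atrial light chain and one of the most abundant of the list, was at 365 and 388 FPKM without 2-DG and 256 and 245 FPKM with it (log2 fold change -0.42 ± 0.25 SE, adjusted p = 0.204). Slow troponin I, TNNI1, was at 95.1 and 102 FPKM without 2-DG and 62.5 and 49.9 FPKM with it (-0.64 ± 0.22), and alpha-actinin 2, ACTN2, at 11.3 and 12.1 FPKM without 2-DG and 8.91 and 7.68 FPKM with it (-0.33 ± 0.23). These 3 were lower in both libraries with 2-DG, as were 50.6% of all members in FPKM, and were not called. The summed level of the 25 listed sarcomere genes was 1180 and 1212 FPKM without 2-DG and 2829 and 2651 FPKM with it. MYL2 had 0 FPKM in all 4 libraries and MYH7 was under 1 FPKM in all 4. The actins ACTA1, ACTA2 and ACTC1, and MYH6 with MYH7, have near-identical coding sequence, and how reads matching several copies were counted is not given in the sources used here.

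Smooth muscle genes rose in 10 of 11 members and fell in none (median 2.41). TAGLN, an actin-binding protein of smooth muscle, was at 16.4 and 17.1 FPKM without 2-DG and 691 and 649 FPKM with it (log2 fold change 5.49 ± 0.20 SE, adjusted p = 8.66e-14). CNN1, calponin, was at 6.61 and 8.28 FPKM without 2-DG and 149 and 146 FPKM with it (log2 fold change 4.48 ± 0.20 SE, adjusted p = 1.12e-12). MYOCD, the coactivator that drives smooth and cardiac muscle genes, was at 3.25 and 2.91 FPKM without 2-DG and 33.1 and 34.6 FPKM with it (log2 fold change 3.63 ± 0.23 SE, adjusted p = 2.67e-10), and LMOD1, leiomodin, at 3.35 and 3.54 FPKM without 2-DG and 34.0 and 28.0 FPKM with it (3.34 ± 0.18). The groups did not overlap in any of them. The defining smooth muscle myosin MYH11 stayed between 0.06 and 0.12 FPKM in all 4 libraries. The summed level of the 13 listed genes was 336 and 341 FPKM without 2-DG and 1898 and 1819 FPKM with it.

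Genes activated by YAP and TEAD, which answer to mechanical tension among other inputs, rose in 5 of 13 members and fell in none. ANKRD1, also a stress protein of heart muscle, was at 4.05 and 3.80 FPKM without 2-DG and 687 and 731 FPKM with it (log2 fold change 7.66 ± 0.20 SE, adjusted p = 1.82e-15). The secreted matrix proteins CTGF and CYR61 were at 11.6 and 12.7 FPKM without 2-DG and 162 and 178 FPKM with it (log2 fold change 3.98 ± 0.16) and at 14.2 and 15.5 FPKM without 2-DG and 164 and 185 FPKM with it (3.73 ± 0.16), and CRIM1 rose by 1.70 ± 0.19. Of 18 members among calcium, peptide and channel genes of the heart, 8 rose and 3 fell. Of the 18, 4 passed through the libraries with 2-DG alone and 2 through those without it alone. NPPB, which encodes the natriuretic peptide BNP (chr1:11917521-11918988 in GRCh37), was at 1.99 and 3.17 FPKM without 2-DG and 536 and 530.3 FPKM with it (log2 fold change 7.87 ± 0.25 SE, adjusted p = 1.98e-14). Its relative NPPA was at 0.21 and 0 FPKM without 2-DG and 4.95 and 3.78 FPKM with it (log2 fold change 5.44 ± 0.63 SE, adjusted p = 8.06e-07), and phospholamban, PLN, at 0.88 and 0.74 FPKM without 2-DG and 13.8 and 14.1 FPKM with it (4.27 ± 0.27). KCNJ3, a subunit of an atrial potassium channel, fell from 5.80 and 5.33 to 0.25 and 0.34 FPKM (log2 fold change -4.07 ± 0.27 SE, adjusted p = 3.28e-10). GJA1, the gap junction protein connexin 43, also fell, from 269 and 244 to 98.8 and 96.2 FPKM (-1.22 ± 0.11).

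Heart transcription factors split. Of 18 members, 4 rose and 8 fell (median -0.93), and 3 of the 18 passed through the libraries without 2-DG alone. ISL1, a marker of heart progenitors, was at 15.7 and 14.7 FPKM without 2-DG and 55.1 and 55.5 FPKM with it (log2 fold change 2.03 ± 0.12 SE, adjusted p = 5.98e-11). NKX2-5 was at 2.91 and 1.66 FPKM without 2-DG and 8.56 and 6.50 FPKM with it (log2 fold change 1.89 ± 0.33 SE, adjusted p = 0.000133), and SMYD1, a methyltransferase of striated muscle, at 7.61 and 5.77 FPKM without 2-DG and 35.6 and 31.4 FPKM with it (log2 fold change 2.50 ± 0.21 SE, adjusted p = 1.88e-08). MEF2C rose too (1.99 ± 0.17). HAND1, a factor of lateral mesoderm and the left ventricle (chr5:153854532-153857824 in GRCh37), was at 712 and 741 FPKM without 2-DG and 104 and 102 FPKM with it (log2 fold change -2.65 ± 0.16 SE, adjusted p = 6.95e-11). TBX5, a factor of the first heart field, was at 3.61 and 4.36 FPKM without 2-DG and 0.9 and 0.79 FPKM with it (log2 fold change -2.06 ± 0.26 SE, adjusted p = 3.07e-06), and TBX2, a repressor of chamber genes, at 11.6 and 13.1 FPKM without 2-DG and 2.18 and 1.47 FPKM with it (log2 fold change -2.57 ± 0.26 SE, adjusted p = 1.31e-07). GATA5 and GATA6 fell (-1.79 and -1.07), while GATA4 was not called (-0.29 ± 0.10). ISL1, NKX2-5, SMYD1 and MEF2C had no library with 2-DG below the control, and HAND1, TBX5, TBX2 and GATA6 none above it. For TBX5 this was fixed by the rule for members.

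**Figure D4:**
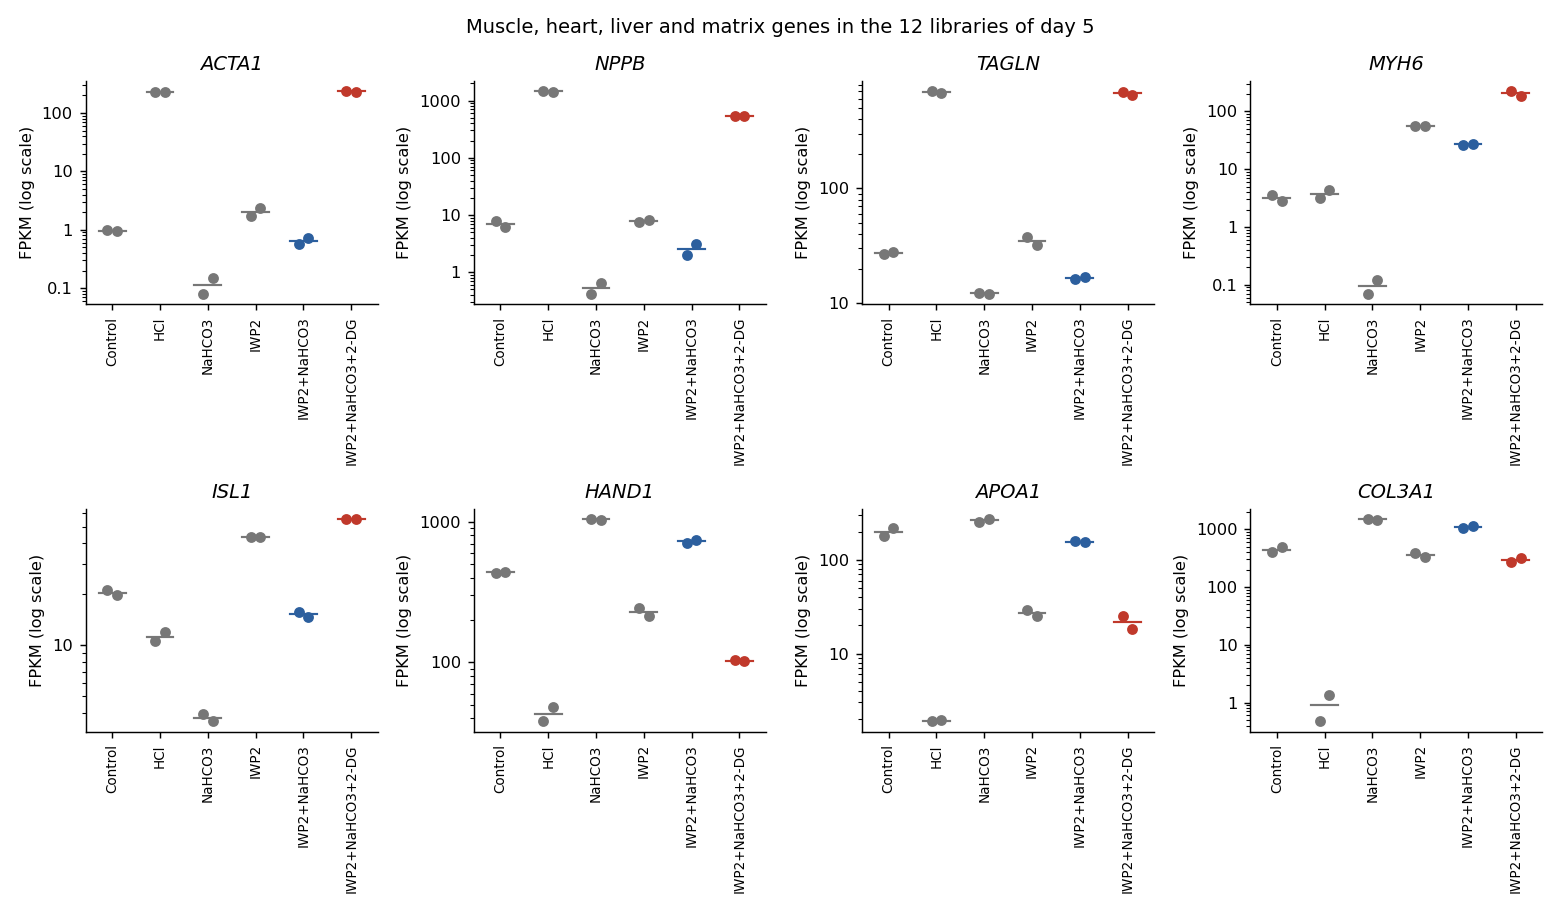
FPKM (log scale, a range of its own in each panel) of 8 muscle, heart, liver and matrix genes in the 12 libraries of day 5, with points for libraries and a line for their mean; red is the group with 2-DG and blue its control. ACTA1, NPPB and TAGLN are high in the 2-DG and HCl libraries alone, ISL1 and MYH6 are highest with 2-DG, and HAND1, APOA1 and COL3A1 are lower with 2-DG than in its control.

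Of the 42 lists, the one with the largest share of members falling was that of liver and foregut markers. Of 19 members, 16 fell and none rose (median -2.62), and 8 of the 19 passed through the libraries without 2-DG alone. HNF4A, a nuclear receptor of liver and gut, was at 16.1 and 16.2 FPKM without 2-DG and 2.15 and 1.62 FPKM with it (log2 fold change -2.92 ± 0.14 SE, adjusted p = 3.79e-12). APOA1, the main protein of HDL, was at 159 and 155 FPKM without 2-DG and 25.3 and 18.3 FPKM with it (log2 fold change -2.67 ± 0.18 SE, adjusted p = 6.91e-10), and its partner APOA2 at 45.9 and 53.9 FPKM without 2-DG and 3.09 and 3.36 FPKM with it (-3.78 ± 0.30). TTR, the thyroxine carrier, was at 21.8 and 20.2 FPKM without 2-DG and 0.79 and 0.93 FPKM with it (-4.45 ± 0.23), and FGB, a fibrinogen chain, at 12.1 and 11.6 FPKM without 2-DG and 0.16 and 0.1 FPKM with it (-6.25 ± 0.37). SERPINA1, a protease inhibitor of liver, had 332 counts in the 2 libraries without 2-DG and 1 count with it, a ratio of 285 per count sequenced (95% exact interval 50.7 to 11300, counting error only). AFP was low in both groups, at 2.49 and 3.66 FPKM without 2-DG and 0.33 and 0.37 FPKM with it (-2.96 ± 0.53), and albumin (ALB) stayed under 0.2 FPKM in all 4 libraries. The 7 genes named before albumin were lower in both libraries with 2-DG, which for TTR, FGB, SERPINA1 and AFP was fixed by the rule for members. APOE and SOX17 were among the 3 not called (-0.28 and 0.56). The summed level of the 29 listed genes was 1243 and 1289 FPKM without 2-DG and 765 and 692 FPKM with it.

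Of 16 epithelial members, 1 rose and 1 fell, near the 7.65% and 9.01% over all members, and the median was -0.57. KRT18, a keratin of simple epithelia, rose from 402 and 412 to 927 and 926 FPKM (1.36 ± 0.15), the tight junction protein CLDN3 fell from 7.82 and 7.81 to 2.99 and 2.80 FPKM (-1.25 ± 0.23), and EPCAM was at 33.1 and 30.1 FPKM without 2-DG and 17.1 and 15.9 FPKM with it and was not called (-0.76 ± 0.17). Of 19 fibroblast and matrix members, 7 fell and none rose (median -0.59), and 3 of the 19 passed through the libraries without 2-DG alone. COL3A1, a fibrillar collagen, was at 1068 and 1133 FPKM without 2-DG and 269 and 313 FPKM with it (log2 fold change -1.75 ± 0.35 SE, adjusted p = 0.000416). LUM, the matrix proteoglycan lumican, was at 273 and 268 FPKM without 2-DG and 8.36 and 12.6 FPKM with it (log2 fold change -4.53 ± 0.30 SE, adjusted p = 4.23e-10), DCN, decorin, at 3.09 and 3.20 FPKM without 2-DG and 0.04 and 0 FPKM with it (-7.01 ± 0.51), and POSTN, periostin, at 1.54 and 1.96 FPKM without 2-DG and 0.13 and 0.08 FPKM with it (-3.82 ± 0.42). The groups did not overlap in these 4, which for DCN and POSTN was fixed by the rule for members. COL1A1 and FN1 were not called (-0.40 and -0.01). The 19 matrix genes summed to 3220 and 3353 FPKM without 2-DG and to 1686 and 1765 FPKM with it, and the 18 listed epithelial genes to 2019 and 2008 FPKM and to 2815 and 2702 FPKM. KRT18 was a large part of the epithelial sums. The part that shifts in these marker lists have in the other results was not tested.

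Among 6 epicardial and mesothelial members 3 fell and 1 rose. The 3 that fell (WT1, BNC2 and UPK3B) were members through the libraries without 2-DG alone, and so had to differ to some degree. WT1, a factor of the epicardium, was at 6.27 and 7.77 FPKM without 2-DG and 0.19 and 0.14 FPKM with it (log2 fold change -5.17 ± 0.47 SE, adjusted p = 9.29e-08). BNC2 and UPK3B fell (-3.63 and -3.51), and LRRN4 rose by 2.10 ± 0.20. Of 6 endothelial and blood members, 2 rose and 2 fell. The endothelial cadherin CDH5 was at 0.06 and 0.07 FPKM without 2-DG and 1.22 and 1.25 FPKM with it (log2 fold change 4.39 ± 0.45 SE, adjusted p = 2.74e-07), LMO2, a factor of blood and endothelium, rose by 1.36 ± 0.28, and the receptor TEK fell from 30.4 and 34.7 to 1.85 and 1.98 FPKM (log2 fold change -3.92 ± 0.18 SE, adjusted p = 1.59e-12). The embryonic globin HBE1 fell (-2.50 ± 0.46). KDR, the VEGF receptor, was at 109.6 and 114 FPKM without 2-DG and 79.2 and 79.7 FPKM with it and was not called, and TIE1, ERG and HBZ were under 0.2 FPKM in all 4 libraries.

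Most listed HOX genes of the B cluster fell. Of 10 members of the presomitic and HOX list, 8 fell and none rose (median -2.19), and 3 of the 10 passed through the libraries without 2-DG alone. HOXB6 was at 44.0 and 44.9 FPKM without 2-DG and 0.79 and 0.71 FPKM with it (log2 fold change -5.70 ± 0.23 SE, adjusted p = 9.02e-13), HOXB4 at 10.2 and 10.8 FPKM without 2-DG and 1.59 and 1.34 FPKM with it (-2.66 ± 0.24) and HOXB7 at 2.67 and 2.59 FPKM without 2-DG and 0.33 and 0.13 FPKM with it (-3.27 ± 0.50). HOXB8 had 189 counts without 2-DG and 0 with it, at least 26.4-fold lower. HOXB3 and HOXB5 also fell (-2.09 and -2.27), while HOXB2, next to them, was at 25.8 and 27.3 FPKM without 2-DG and 15.1 and 16.8 FPKM with it and was not called (-0.56 ± 0.25). HOXB6, HOXB4 and HOXB3 overlap each other or the antisense gene HOXB-AS3, and HOXB7 overlaps HOXB8. Whether counting used strand is not given in the sources used here, so reads of overlapping genes could not be told apart. The same holds for DDIT3 with MARS, TAGLN with PCSK7, KRT18 with KRT8, PLN with CEP85L, and WT1 with WT1-AS.

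Signalling genes moved in both directions. Of 17 BMP members, 3 rose and 8 fell. The ligands BMP2 and BMP10 were at 12.0 and 10.8 FPKM without 2-DG and 106 and 106 FPKM with it (log2 fold change 3.38 ± 0.14 SE, adjusted p = 4.32e-13) and at 0.44 and 0.55 FPKM without 2-DG and 8.44 and 8.64 FPKM with it (4.28 ± 0.46), while BMP4 fell from 121 and 126 to 51.3 and 51.4 FPKM (-1.10 ± 0.11). MSX1, a target of the pathway, fell from 119 and 98.9 to 20.2 and 20.1 FPKM (-2.26 ± 0.27). Of 17 WNT targets, 4 rose and 5 fell. SP5, a direct target, was at 8.37 and 7.21 FPKM without 2-DG and 2.33 and 2.50 FPKM with it (log2 fold change -1.52 ± 0.20 SE, adjusted p = 4.56e-06), and RNF43 and RSPO3, which tune receptor levels, fell (-2.32 and -1.77). MYC rose from 1.85 and 1.86 to 16.1 and 19.2 FPKM (3.42 ± 0.17) and DKK1, an inhibitor of WNT, from 2.80 and 2.79 to 5.61 and 4.61 FPKM (1.05 ± 0.25). DKK1 fell short of the 2-fold limit without the first library with 2-DG (0.89). AXIN2 was not called (-0.57).

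Of 17 FGF members, 7 rose and 2 fell. Of the 17, 2 passed through the libraries with 2-DG alone and 1 through those without it alone. The ERK-responsive factor ETV5 was at 1.38 and 1.18 FPKM without 2-DG and 10.7 and 10.8 FPKM with it (log2 fold change 3.23 ± 0.16 SE, adjusted p = 4.65e-12), and the phosphatase DUSP5 and the ligand FGF18 rose by 2.74 ± 0.18 and 2.94 ± 0.40. FGF19, a ligand, had 281 counts without 2-DG and 0 with it, at least 39.5-fold lower. In the NOTCH list of 11 members, 2 rose and 2 fell. The ligand JAG1 was at 12.7 and 11.5 FPKM without 2-DG and 125 and 114 FPKM with it (log2 fold change 3.47 ± 0.20 SE, adjusted p = 5.51e-11) and the target HEY1 at 1.80 and 1.43 FPKM without 2-DG and 8.19 and 8.32 FPKM with it (2.52 ± 0.37), while the ligand DLL1 fell (-2.10), as did the modifier LFNG (9.80 and 10.3 to 2.61 and 1.80 FPKM). Libraries of the groups did not overlap in ETV5, JAG1 or HEY1.

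Genes of mitosis fell in part. Of 22 members of the G2 and mitosis list 7 fell and none rose (median -0.77). MKI67, a marker of cycling cells, was at 17.2 and 18.6 FPKM without 2-DG and 4.90 and 4.56 FPKM with it (log2 fold change -1.75 ± 0.28 SE, adjusted p = 5.61e-05). The topoisomerase TOP2A was at 54.2 and 52.9 FPKM without 2-DG and 19.3 and 16.4 FPKM with it (log2 fold change -1.41 ± 0.17), and the kinesins CENPE and KIF20A fell (-1.75 and -1.75). All 22 had a log2 value below 0, from -1.75 to -0.13. Of 22 replication members, 1 rose (CDC6, 1.10) and none fell, with values from -0.52 to 1.1.

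Markers of other lineages were called in both directions. Of 10 pluripotency members 2 fell: TDGF1 (8.75 and 8.68 to 0.99 and 1.36 FPKM, -2.74 ± 0.16) and L1TD1 (-1.37). POU5F1 was at 4.09 and 2.80 FPKM without 2-DG and 5.30 and 2.57 FPKM with it and was not called, and NANOG stayed under 0.1 FPKM in all 4 libraries. In the primitive streak list 1 of 7 members rose and 2 fell. Of 7 neural members 1 rose and 3 fell, with LHX2 at 14.9 and 19.1 FPKM without 2-DG and 0.58 and 0.87 FPKM with it (-4.40 ± 0.32), NCAM1 at -1.93, ZIC2 at -1.36, and the intermediate filament NES at 71.0 and 70.1 FPKM without 2-DG and 235 and 227 FPKM with it (1.88 ± 0.10). Of the 7, 2 passed through the libraries without 2-DG alone. PAX6 and SOX1, which define neural progenitors, were under 0.1 FPKM in all 4 libraries.

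Beyond the lists, several of the largest changes were in genes of other kinds. CTA-384D8.31, a locus with 0 counts in both libraries without 2-DG, was at 40.4 and 49.7 FPKM with it, at least 48.4-fold higher. KLHDC7B had 1 count without 2-DG and 738 with it, a ratio of 861 per count sequenced (95% exact interval 154 to 34000). LAMP3, a lysosomal membrane protein, was at 0.01 and 0.07 FPKM without 2-DG and 9.40 and 13.7 FPKM with it (log2 fold change 8.34 ± 0.45 SE, adjusted p = 2.47e-11). INHBE, an activin subunit of liver, was at 0.38 and 0.24 FPKM without 2-DG and 48.0 and 48.6 FPKM with it (log2 fold change 7.43 ± 0.26 SE, adjusted p = 6.26e-14), G0S2, an inhibitor of lipolysis, at 0.43 and 0.24 FPKM without 2-DG and 27.7 and 27.2 FPKM with it (log2 fold change 6.49 ± 0.48 SE, adjusted p = 1.86e-09), and FAM129A at 0.1 and 0.08 FPKM without 2-DG and 11.6 and 14.3 FPKM with it (log2 fold change 7.33 ± 0.33). None of these 4 had a library without 2-DG above 0.5 FPKM.

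On the other side, ALOX15, a lipoxygenase, had 1913 counts without 2-DG and 2 with it, a ratio of 820 (95% exact interval 227 to 6780). PITX3, a homeobox factor, had 769 and 2 (ratio 330, interval 91 to 2730), and SPRR2F, a keratinocyte envelope protein with near-identical relatives, had 146 and 0, at least 20.7-fold lower. C7, a complement component, fell from 22.3 and 24.9 to 0.39 and 0.27 FPKM, and SHISA3, an antagonist of WNT and FGF receptors, from 25.1 and 23.8 to 0.23 and 0.37 FPKM. ATOH1, a proneural factor, fell from 6.80 and 7.86 to 0.17 and 0.17 FPKM (-5.23 ± 0.37), and the non-coding loci CTB-158E9.1 and AC105227.1 fell (-5.65 and -5.32). Except AC105227.1, at 2.29 and 0 FPKM, each of these was under 0.5 FPKM in both libraries with 2-DG.

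Levels in the other groups of day 5 place these changes, as values side by side, since IWP2 with NaHCO3 is the control of the 2-DG group. TXNIP, in each pair of libraries, was at 55.0 and 52.2 FPKM in the differentiation control, 55.9 and 62.4 with IWP2, 25.8 and 24.1 with IWP2 and NaHCO3 and 57.5 and 54.4 with 2-DG added. COL3A1 was at 399 and 484 FPKM in the differentiation control, 1508 and 1464 with NaHCO3, 385 and 329 with IWP2, 1068 and 1133 with IWP2 and NaHCO3 and 269 and 313 with 2-DG added. APOA1 was at 29.3 and 25.3 FPKM with IWP2, 159 and 155 with IWP2 and NaHCO3 and 25.3 and 18.3 with 2-DG added. These 3 genes, chosen after their values were seen, were with 2-DG nearer to IWP2 alone than to IWP2 with NaHCO3. The stress genes differed from that: HSPA5 was at 178 and 175 FPKM with IWP2, 152 and 155 with IWP2 and NaHCO3 and 832 and 891 with 2-DG added.

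HCl, measured against the differentiation control of day 5, shares no library with the 2-DG comparison. This comparison was added after the values had been seen. Of the 1069 members that rose with 2-DG, 426 (39.9%) also rose with HCl, which is 42.2% of the 1010 members that rose with HCl; the share over all members is 7.23%. Of the 1258 that fell, 659 (52.4%) fell with HCl, 44.6% of the 1477 that did so, against 10.6% over all members. Members called in opposite directions numbered 72 of the rises and 51 of the falls. With NaHCO3 alone, also against the differentiation control, 48 (4.49%) of the rises rose and 148 (13.8%) fell, where 2.4% of all members rose and 3.23% fell. Of the falls with 2-DG, 72 (5.72%) fell with NaHCO3 and 169 (13.4%) rose. With IWP2 alone, 84 (7.86%) of the rises rose and 291 (23.1%) of the falls fell, where 1.91% and 3.93% of all members did; 62 (5.8%) of the rises fell and 60 (4.77%) of the falls rose.

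The difference between the 2-DG effect and the HCl effect was tested in the same fit, and 1253 members (8.97%) were higher with 2-DG and 1015 (7.27%) lower. By the labels, the 2-DG effect was measured in cells with IWP2 and NaHCO3, and the HCl effect in cells without them. A difference between 2-DG and HCl cannot be told apart from that difference in background. ACTA1 was at 0.98 and 0.96 FPKM in the differentiation control and 232 and 229.9 with HCl, and the test did not tell its effect from that of 2-DG (difference 0.76 ± 0.55, adjusted p = 0.338). NPPB was at 7.75 and 6.10 and 1456 and 1426 FPKM in those groups (difference 0.14 ± 0.32, adjusted p = 0.818). TRIB3 was at 0.63 and 0.7 and 20.1 and 16.2 FPKM, and its rise was larger with 2-DG by 1.93 ± 0.33 (adjusted p = 0.000146). Of 25 integrated stress response members 20 rose with HCl, and in 13 the 2-DG effect was higher and in 1 lower. That one was GDF15, at 1.57 and 1.34 and 94.8 and 71.6 FPKM (-2.05 ± 0.41, adjusted p = 0.000732).

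The 2 effects, each on its own background, differed more over the ER list. With HCl, 3 of its 33 members rose and 1 fell, and in 22 the 2-DG effect was higher, in none lower. HSPA5 was at 175 and 182 FPKM in the differentiation control and 238 and 229.8 with HCl, and the effects differed by 2.23 ± 0.14 (adjusted p = 3.91e-10). Sarcomere genes differed likewise, 14 of 20 being higher with 2-DG and none lower: TNNT2 was at 25.9 and 25.6 FPKM in the differentiation control and 0.63 and 0.86 with HCl (difference 6.26 ± 0.20, adjusted p = 1.02e-13). TXNIP, higher with 2-DG, was lower with HCl, at 24.96 and 24.8 FPKM (difference 2.41 ± 0.15, adjusted p = 7.12e-10). All 22 mitosis members had a lower effect with 2-DG than with HCl, which raised 7 of them. In the p53 list 9 of 17 rose with HCl and the 2-DG effect was lower in 10, with CDKN1A at 0.62 and 0.61 FPKM in the differentiation control and 43.8 and 42.6 with HCl (difference -3.08 ± 0.46, adjusted p = 3.32e-05). With each library of the HCl and differentiation control groups left out in turn, between 1109 and 1203 members were higher with 2-DG than with HCl and between 960 and 1040 lower.

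Over time, the 2-DG effect on the genes called on day 5 was compared with the same treatments on days 3, 7 and 11, which share no library with day 5. On day 3, 127 (11.9%) of the 1069 rises also rose and 93 (7.39%) of the 1258 falls also fell, against 1.5% and 2.09% of all genes tested on that day. Without the second library of day 3 with 2-DG these numbers were 196 (18.3%) and 235 (18.7%), against 5.28% and 8.76%. Without the first they were 109 and 84. On day 7, 325 (30.4%) of the rises rose and 579 (46.0%) of the falls fell, against 7.1% and 9.23%. On day 11, 279 (26.1%) and 498 (39.6%) did, against 9.32% and 11.8%. Of the day 5 rises, 107 (10.0%) fell on day 11, and 118 (9.38%) of the day 5 falls rose, against 11.8% and 9.32% of all genes. The 2-DG effect of day 5 differed from that of day 3 in 1700 members (12.2%; higher on day 5 in 6.03% and lower in 6.14%), tested as the difference of the 2 effects in 1 fit, and in 2715 without the second library of day 3 with 2-DG.

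Calls among the stress genes were most numerous on day 5 and few by day 11. ER members that rose numbered 13 of 33 on day 3 (12 and 18 without the first and the second library with 2-DG), 29 on day 5, 1 on day 7 and none on day 11. Integrated stress response members numbered 17 of 25 on day 3 (15 and 16 without those libraries), 23 on day 5, 11 on day 7 and 3 on day 11. HSPA5 had a log2 fold change of 1.69 ± 0.10 on day 3 (1.59 and 1.77 without those libraries), 2.66 ± 0.10 on day 5, 0.42 ± 0.08 on day 7 and -0.15 ± 0.08 on day 11. ASNS had 3.54 ± 0.14 (3.32 and 3.73), 5.46 ± 0.15, 3.05 ± 0.10 and 0.66 ± 0.10 on those days. TXNIP rose on day 3 (1.47 ± 0.11; 1.45 and 1.48 without those libraries) and day 5 (1.34 ± 0.11) and had -0.65 ± 0.09 on day 11 (adjusted p = 1.11e-06).

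No sarcomere member rose on day 3 (4 without the second library with 2-DG), 13 of 20 rose on day 5, and all 20 on days 7 and 11. On day 3 TNNT2, MYH6 and LDB3 were at 0.1 FPKM or less with and without 2-DG, and CSRP3 and MYOZ2 at 0, so an effect on them could hardly be measured. TNNT2 was at 45.0 and 48.4 FPKM without 2-DG and 283 and 281 FPKM with it on day 7 (log2 fold change 2.67 ± 0.16) and at 35.6 and 33.4 FPKM without 2-DG and 312 and 316 FPKM with it on day 11 (3.20 ± 0.16). ACTA1 was largest on day 5, with 0.99 ± 0.54 on day 3 (adjusted p = 0.224), 8.70 ± 0.36 on day 5, 4.84 ± 0.25 on day 7 and 6.92 ± 0.30 on day 11. Its day 3 value was -0.57 without the first library with 2-DG and 1.77, a call, without the second (adjusted p = 0.000168). Smooth muscle members that rose numbered 0 of 11 on day 3, 10 on day 5, 7 on day 7 and 5 on day 11, with TAGLN at 5.49 ± 0.20 on day 5, 1.71 ± 0.11 on day 7 and 1.41 ± 0.11 on day 11. MYL7, not called on day 5, rose on days 7 and 11 (2.07 ± 0.23 and 4.03 ± 0.25). It was expressed on day 3, at 12.9 and 6.91 FPKM with 2-DG and 9.74 and 5.05 FPKM without it. Liver members that fell numbered 2 of 19 on day 3 (2 and 4 without the first and the second library with 2-DG), 16 on day 5, 14 on day 7 and 15 on day 11, and COL3A1 had -2.56 ± 0.17 and -2.89 ± 0.17 on the last pair of days. On day 3 the liver genes TTR, FGB and SERPINA1 were at 0.1 FPKM or less with and without 2-DG. APOA1 was at 4.56 and 2.83 FPKM with 2-DG and 3.32 and 2.75 FPKM without it on that day. HAND1 was at 457 and 451 FPKM without 2-DG and 479 and 367 FPKM with it on day 3 (0.05 ± 0.15, adjusted p = 0.84; -0.25 and 0.3 without the first and the second library with 2-DG) and had -0.73 ± 0.08 on day 7 and -1.08 ± 0.08 on day 11. Of the mitosis list, none fell on day 7 or 11 and 6 and 2 members rose. Days 7 and 11 are in another table than days 3 and 5, and the differences between tables were not tested.

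**Figure D5:**
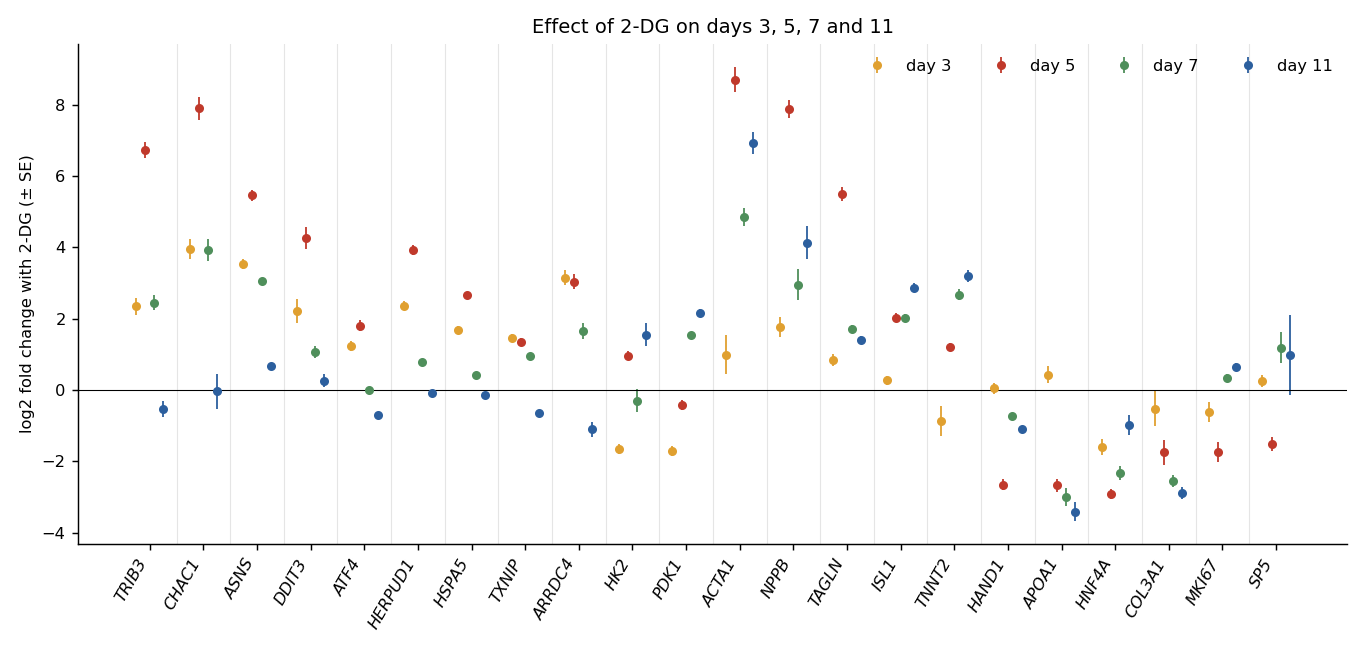
Log2 fold change with 2-DG (points, ± SE of the fit) of 22 named genes on days 3, 5, 7 and 11, each from the comparison of IWP2, NaHCO3 and 2-DG with IWP2 and NaHCO3 on that day, with 2 libraries per group. TRIB3, CHAC1, ASNS and HSPA5 are highest on day 5, TNNT2 and ISL1 highest on day 11, and APOA1 and COL3A1 lowest on day 11.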

How the data were processed

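RNA was measured by RNA-seq in 50 libraries of H1 cells (total RNA extracted with RNAiso Plus and libraries made with the VAHTS Universal V8 kit, per the labels' protocols). The authors deposited counts per gene and FPKM for the same genes, with an exonic gene size; cutadapt 1.9.1, HISAT2 2.0.1, HTSeq 0.6.1 and GRCh37 are named in the submitters' processing notes, with no roles, and the annotation and strand setting are not given in the sources used here. FPKM values are as deposited by the authors and were used for levels and for choosing members; tests used the counts.

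Days 3 and 5 share a table of 24 libraries, and days 7 and 11 one of 26. In each, genes reaching 1 FPKM in 2 or more libraries (17286 and 18451) were fitted with edgeR 4.0.16 (R 4.3.3) on TMM-scaled counts, with 1 mean per group and the robust quasi-likelihood test. P-values were Benjamini-Hochberg adjusted over all genes of the table. Calls needed an adjusted p below 0.05 and a log2 fold change of 1 or more in either direction. Standard errors were derived from the log2 fold change and the F statistic. On simulated counts for the day 5 comparison (17286 genes), 38% of genes changed 2-fold and 100% of those changed 3-, 4- or 8-fold were called, with 1 unchanged gene called. The changed genes, 50 at each fold, were drawn only from genes above a floor of expected counts. The same spread was simulated for every gene and library. These shares therefore do not cover genes with low counts or libraries that differ in spread. Libraries held 14794134 to 22796553 counts in the table of days 3 and 5. Floors (3 counts per library) and intervals cover counting error only.

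The members and the 42 gene lists (819 genes) were chosen with earlier results of these data known, so the lists carry no test and are given by counts and medians. Named genes were a panel of 32 genes, the 12 largest called rises and 12 largest called falls among members whose higher group reached 5 FPKM and whose libraries did not overlap, and up to 4 of the largest called changes of each of the 32 lists described; other list members are named as examples after their values were seen. The HCl, NaHCO3 and IWP2 comparisons were added after the values were seen. Replicate numbers come from the labels; deviations of same-numbered libraries had a correlation of 0.014, so they were not taken as pairs. Promoters are from RefSeq (GRCh38.p14), matched by symbol for 100 of the 152 genes named by rule, and gene positions from the deposited table (GRCh37). Alternatives were RLE scaling, DESeq2 1.42.0, limma 3.58.1 on log2(FPKM + 1), other filters, fewer libraries, a replicate block and each replicate left out. Results for some genes named by rule are not reported here.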

Additional observations from a re-analysis of the deposited data

Results flagged for a closer look

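The 2-DG effect was compared between day 5 and day 3 by testing the difference of both effects in 1 edgeR fit, and the results given here are those that differed between the days. Over all members 1700 did, 842 with a higher effect on day 5 and 858 with a lower one. Values in parentheses that follow leave out first the first and then the second library of day 3 with 2-DG, since those libraries stood apart from each other.

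Of 10 members among glucose transporters and hexokinases, 2 had a higher effect on day 5 and 1 a lower one. These numbers were 3 and 1 of 18 glycolytic enzymes and 3 and 0 of 14 genes of lactate and pyruvate handling, against 6.03% and 6.14% of all members. HK2, a hexokinase, had a log2 fold change of -1.65 ± 0.14 on day 3 and 0.96 ± 0.13 on day 5, a difference of 2.61 (2.31 and 2.95). HK1 differed by 1.22 (1.14 and 1.29), from -0.59 ± 0.11 to 0.63 ± 0.10. PDK1, from -1.71 ± 0.15 to -0.43 ± 0.14, differed by 1.29 (1.08 and 1.5), and LDHA, from -0.99 ± 0.12 to 0.20 ± 0.12, by 1.19 (1.39 and 1.00). These 4 were lower with 2-DG on day 3 and less so, or higher, on day 5.

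In 13 of 33 ER members and 13 of 25 integrated stress response members the effect was higher on day 5. It was lower in none. In the panel, HSPA5, DNAJB9 and ATF4 did not reach the 2-fold limit (differences of 0.97, 0.97 and 0.58), and GDF15 did not pass the test (1.10 ± 0.81). The panel stress genes that passed rose on both days and more on day 5. The difference was 4.39 for TRIB3 (4.71 and 4.09), 3.94 for CHAC1 (4.39 and 3.58) and 2.05 for DDIT3 (2.86 and 1.51). ASNS differed by 1.91 (2.11 and 1.72) and HERPUD1 by 1.57 (1.77 and 1.37).

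Lineage genes differed in both directions. MYH6 was higher on day 5 by 3.65; it was 5.58 without the first library (adjusted p = 0.0386) and 2.77 without the second, where it no longer passed the test (adjusted p = 0.121). TNNT2 was higher by 2.08 (2.02 and 2.12) and ISL1 by 1.77 (1.92 and 1.60). On day 3 MYH6 and TNNT2 were at 0.1 FPKM or less with and without 2-DG, so their differences rest on day 3 values near the floor. ISL1 was at 22.5 and 19.8 FPKM with 2-DG and 19.4 and 19.6 FPKM without it on that day. HAND1 was lower on day 5, at -2.71 (-2.43 and -2.96), as were APOA1 at -3.10 (-2.65 and -3.48) and HNF4A at -1.32 (-1.47 and -1.16). The WNT target SP5 was at -1.77 (-1.42 and -2.08). MKI67 was at -1.13; it was -1.74 without the first library and -0.12 without the second, where it no longer passed the test (adjusted p = 0.51).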

How the results depend on the processing

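The count of genes that rose kept within 1.5 times of 1069 under all alternatives but limma on log2(FPKM + 1), which called 642 and changes the test, the scale and the library scaling together. The count that fell did so but for the fit with no filter on low values, which called 2194 over a wider set of genes. Leaving out 1 library at a time gave 1020 to 1087 rises, 1178 to 1329 falls and 1547 to 2715 members whose effect differed between days 5 and 3. The 2715 came without the second library of day 3 with 2-DG. The other alternatives gave 642 to 1420, 948 to 2194 and 1330 to 2360. Replicate numbers did not pair the libraries (correlation of deviations 0.014, and -0.067 to 0.089 over the 15 pairs of day 5 groups); with the number as a block 1067 rose, 1251 fell and 1682 differed between days. Of the 143 called named genes, 14 lost the call under at least 1 of 20 alternatives, among them ALG2, DKK1, LMO2, SLC2A6, GBE1, RPN2, BHLHE40, EGLN1, BBC3, FOS, STARD4, CYP51A1 and RNF43, and none changed direction while called. Calls rising made up 45.9% of all calls, 44.8% with RLE scaling and 44.6% with DESeq2. In the simulation 38% of genes changed exactly 2-fold, which lie on the 2-fold limit, were called, and 100% of those changed 3-fold or more. It had no changed genes with low counts and the same spread throughout.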
